A study of Mus musculus with 24 samples.

Results

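The neuronal ceroid lipofuscinosis genes are genes whose mutation causes inherited storage diseases of nerve cells. Of these, 9 were followed across 3 brain regions of mice with a conditional knockout of the transcription factor THAP1, namely Cln3, Mfsd8, Cln6, Cln8, Ppt1, Tpp1, Ctsd, Ctsf and Grn. They were matched by the gene symbol of each array probe, which gave 11 probes of the 25697 on the array, or 9 of the 16593 gene symbols it carries. Cln3 was chosen by its knockout minus control difference, strongly negative in all 3 regions in earlier results of these same arrays, so its knockout values are given as a description, with no test. The other 8 genes were taken because of the disease they share with Cln3.

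Brain tissue was taken at p21, postnatal day 21, from mice labelled Nestin Con (controls) and Nestin THAP1 KO (conditional knockouts), so the name Nestin stands in the labels of both genotypes. Cerebellum, cortex and striatum were each represented by 4 control and 4 knockout arrays, 24 in all, from 4 control and 4 knockout mice according to the design text. The labels give no sex and tie no array to a mouse, so the 4 arrays of a group are the replicates and p-values measure only the spread between these arrays. As background, the Nestin promoter is used to direct gene deletion to the precursors of neurons, astrocytes and oligodendrocytes, a lineage to which microglia and vessel cells do not belong, while the labels do not describe the deleting allele itself.

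Ceroid lipofuscinoses, also called Batten disease, are marked by autofluorescent lipopigment that builds up in lysosomes, the degradative compartment of the cell, and by loss of neurons. The proteins behind them act at different places along one route. CLN6 and CLN8 sit in the membrane of the endoplasmic reticulum and help newly made lysosomal enzymes leave it, PPT1, TPP1, cathepsin D and cathepsin F are enzymes that work inside the lysosome, CLN3 and MFSD8 are proteins of the lysosomal membrane, and progranulin, the product of Grn, is a secreted glycoprotein that is delivered to lysosomes and cut into granulins. THAP1 is a zinc-finger protein that binds DNA, and its mutation causes a form of dystonia.

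The stretch before the transcription start is shown for Cln3, whose level was lowest against control, and for Ctsd, another lysosomal gene, as a contrast. RefSeq (build GRCm38.p6) gave such windows for 8 of the 9 genes. Windows are the 250 bases before the start, 5′ to 3′ on the gene's strand, and capitals mark matches, on either strand, to 3 motifs: TNNGGCA, a core published for THAP1, the E-box CACGTG, and the CLEAR element of lysosomal gene promoters. CACGTG reads the same on both strands, as does the longer CLEAR element, which holds CACGTG in its middle. Cln3 has 2 annotated starts, both on the minus strand. The first window below is chr7:126585818-126586067 (minus strand), before the upstream start, the next is chr7:126583237-126583486 (minus strand), before the downstream start, and the last is chr7:142387828-142388077 (minus strand), before the start of Ctsd.
Cln3 upstream start: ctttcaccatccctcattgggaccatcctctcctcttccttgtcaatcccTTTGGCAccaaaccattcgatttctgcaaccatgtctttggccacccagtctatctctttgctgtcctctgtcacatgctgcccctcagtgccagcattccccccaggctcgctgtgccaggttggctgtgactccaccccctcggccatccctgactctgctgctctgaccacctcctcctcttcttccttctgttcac
Cln3 downstream start: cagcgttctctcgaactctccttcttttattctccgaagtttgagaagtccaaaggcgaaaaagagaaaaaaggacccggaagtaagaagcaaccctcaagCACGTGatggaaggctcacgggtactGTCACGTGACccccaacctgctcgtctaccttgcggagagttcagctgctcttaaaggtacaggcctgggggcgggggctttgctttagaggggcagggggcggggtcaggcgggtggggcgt
Ctsd: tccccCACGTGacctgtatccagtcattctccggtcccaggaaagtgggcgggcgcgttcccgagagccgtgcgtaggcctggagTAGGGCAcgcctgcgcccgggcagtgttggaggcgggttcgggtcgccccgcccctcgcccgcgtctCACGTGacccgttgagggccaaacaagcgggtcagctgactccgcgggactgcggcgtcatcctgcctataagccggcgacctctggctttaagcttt
The upstream window of Cln3 held one TNNGGCA match, whose first base lay 200 bases before the start. The downstream window held none, but held the CLEAR element with its first base at 123 bases before the start and a separate CACGTG at 149. The Ctsd window held a TNNGGCA match at 165 and CACGTG at 245 and at 98 bases before the start.

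Such matches are common for the short motifs. TNNGGCA occurred in 34.7% of 32851 windows of 27025 genes, CACGTG in 6.02% and the CLEAR element in 0.24%, or 79 windows. Among the ceroid lipofuscinosis genes, TNNGGCA occurred in windows of 5 (Cln3, Cln6, Tpp1, Mfsd8 and Ctsd) and CACGTG in windows of 3 (Cln3, Ctsd and Ctsf). The Ppt1 and Grn windows held none of the 3 motifs. A match describes letters only and says nothing of binding.

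Levels are log2 bead intensities after background correction, an added offset of 16 and quantile normalization across arrays. A probe counted as detected on an array where its deposited detection p was under 0.01, and the 14994 probes detected on at least 4 arrays were tested. Of the 11 probes, 10 were among them. The exception was one of the 2 Cln6 probes (ILMN_2946119), which was detected on 0 arrays. Differences are knockout minus control unless stated, and the offset understates differences of dim probes. A probe is said to be called where the adjusted p of limma, by Benjamini-Hochberg over all 14994 probes, was under 0.05.

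Mean raw intensity per array ran from 287 to 570, and 47.2% to 54.5% of probes were detected. The region labels held against their markers: 8 cerebellum markers summed to 25690 to 33770 on cerebellum arrays and to 515 to 1354 elsewhere on the linear scale. Of the 3 kept Thap1 probes, 1 (ILMN_2603593) was detected on 8 of 12 control and 0 of 12 knockout arrays and another (ILMN_2907066) on 10 and 1. In cortex the first was at least 1.52-fold higher in control (limma adjusted p = 0.00151), a bound set by the dimmest detected signals. Its bounds in cerebellum and striatum were 1.02-fold and 1.2-fold, neither called (limma adjusted p of 0.936 and 0.0689). The third (ILMN_1258989) was higher in the knockout cerebellum by 1.14 (limma adjusted p = 0.0152). It was also higher in knockout cortex by 0.83 and striatum by 0.40, neither called (limma adjusted p of 0.0927 and 0.789). The sources used here do not say which probe lies in the deleted part of the gene. Of 9 oligodendrocyte markers, 0 were called lower in cerebellum, 6 in cortex and 8 in striatum. Of all probes, 0.2%, 0.427% and 0.494% were called there in either direction.

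Cln3 (ILMN_1214952, chromosome 7), the lysosomal membrane protein of juvenile Batten disease, was lower in the knockout in each of the 3 regions. On the offset scale, which understates differences of dim probes, it stood at 36.7% of control in cerebellum, 27.6% in cortex and 33.8% in striatum. These differences were the 6th, 3rd and 5th lowest of the 14994 probes.

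In cerebellum, Cln3 log2 levels on control arrays 17, 18, 19 and 20 were 7.28, 7.39, 6.84 and 7.69, and on knockout arrays 21, 22, 23 and 24 they were 5.62, 5.92, 5.88 and 6.00. In cortex, control arrays 9, 10, 11 and 12 gave 6.90, 7.00, 7.09 and 7.08, and knockout arrays 13, 14, 15 and 16 gave 5.25, 5.27, 4.76 and 5.35. In striatum, control arrays 1, 2, 3 and 4 gave 7.43, 7.19, 6.86 and 7.38, and knockout arrays 5, 6, 7 and 8 gave 5.54, 5.67, 5.75 and 5.64. In no region did the lowest control array reach down to the highest knockout array. Cln3 was detected on all 12 control arrays and on 11 of 12 knockout arrays, the exception being cortex knockout array 15.

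The Cln3 difference was -1.45 in cerebellum (SE 0.17, 95% interval -1.80 to -1.10), or 2.73-fold lower. In cortex it was -1.86 (95% interval -2.21 to -1.51), or 3.63-fold lower, and in striatum -1.56 (95% interval -1.91 to -1.21), or 2.95-fold lower. The cortex difference exceeded that in cerebellum by 0.41 in size and that in striatum by 0.30, and the intervals of both regional contrasts included 0 (-0.91 to 0.09 and -0.20 to 0.79). The size depended on the processing. It was -0.82, -0.89 and -0.85 in cerebellum, cortex and striatum with no background correction, and -1.80, -2.26 and -1.97 with the authors' processed values, which differ in several steps at once. Those values were raised to a floor of 16 where lower. The Cln3 cortex knockout arrays 13, 14, 15 and 16 stood near it, at 16.4, 16.8, 8.65 and 18.2, so -2.26 depends on that floor.

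**Figure D1:**
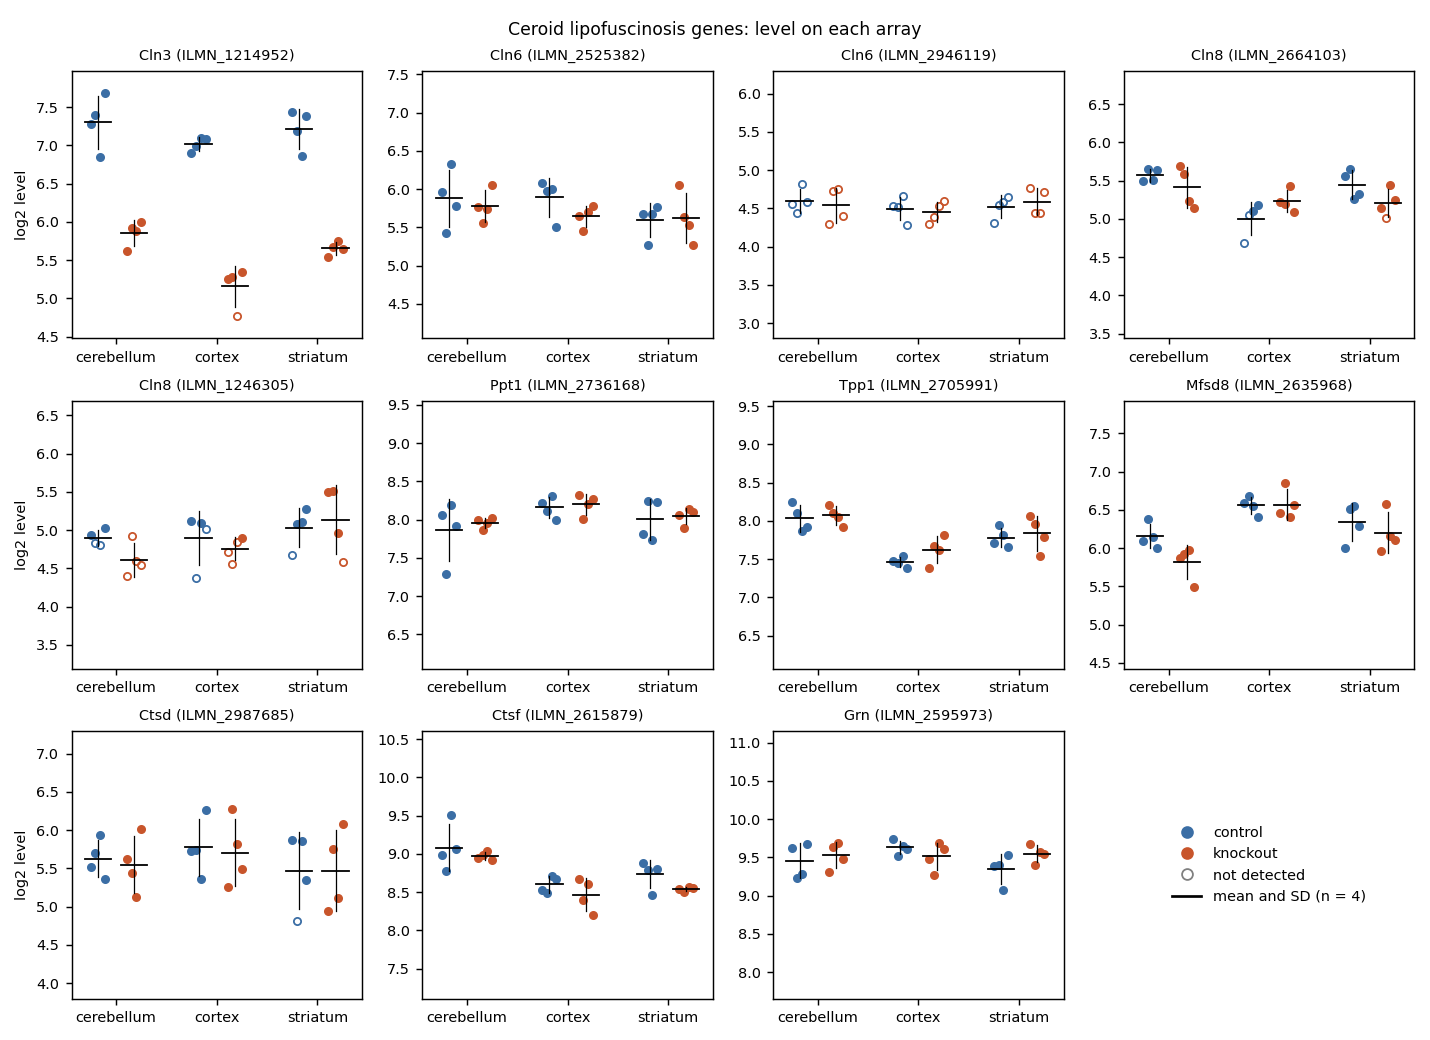
Level of each of the 11 probes on each of the 24 arrays, in log2 units, by region, with control arrays in blue and knockout arrays in red, open circles for arrays on which the probe was not detected, and a bar for the mean and SD of the 4 arrays of a group (each panel has its own axis range, with the same span). The Cln3 knockout arrays lie between 4.76 and 6.00 and all control arrays of that probe at 6.84 or above, while the groups of the other probes overlap except for Mfsd8 in cerebellum.

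The deposited raw intensities had the same order. Before any correction, Cln3 in cerebellum ran from 183 to 343 on control and from 112 to 134 on knockout arrays, in cortex from 170 to 203 and from 107 to 136, and in striatum from 180 to 386 and from 111 to 142. The raw ranges of the 2 genotypes did not overlap in any region either.

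Few probes shared this pattern. Knockout arrays lay below all control arrays in every region for 17 probes, Cln3 among them, which is 0.113% of those tested. Probes called lower in all 3 regions numbered 6, or 0.04%: besides Cln3, these were Cuedc2, Prepl, Dpagt1, E430018J23Rik and Ech1. Since Cln3 was chosen for these contrasts, its place among the 17 and among the 6 is a description and not the result of a test.

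Cln3 was at similar levels in the 3 control regions, a comparison its choice did not use. Its mean control level was 7.30 ± 0.35 (SD, n = 4) in cerebellum, 7.21 ± 0.26 in striatum and 7.02 ± 0.09 in cortex. No neighbouring pair in this order differed beyond its spread, with limma adjusted p of 0.746 for cerebellum against striatum and 0.433 for cortex against striatum. Cerebellum exceeded cortex by 0.28 (95% interval -0.07 to 0.63, limma adjusted p = 0.192). Without cerebellum control array 19, the lowest of its group, that difference was 0.44 (limma adjusted p = 0.0422).

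None of the other 8 genes was called in any region. The counts in limma were 0 of 9 kept probes in cerebellum, cortex and striatum, where 0.2%, 0.427% and 0.494% of all probes were called, so a count of 0 among 9 is what the background gives. At an unadjusted p under 0.05 the counts were 1, 0 and 0, against 5.07%, 10.2% and 7.03% of all probes. In the mean effect over the 3 regions 0 of 9 were called (background 1.95%), and 0 at an unadjusted p under 0.05 (background 13.7%). By the mouse numbers in the design text, arrays of different regions come from the same mice, though no label pairs them. The fit took all arrays as independent, so p-values of the mean effect, here and below, are likely too small. Those of regional differences are likely too large.

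The 95% intervals give the size of difference still compatible with these arrays on the offset scale. Leaving out the dimmer Cln8 probe (ILMN_1246305), which was not detected on any knockout cerebellum array, the lowest interval bound was -0.68 in cerebellum (Mfsd8), -0.63 in cortex (Cln6) and -0.56 in striatum (Cln8, ILMN_2664103). The median of the 9 differences was -0.10, -0.07 and 0.02 in the 3 regions, beside medians over all tested probes of -0.00058, 0.01 and 0.01.

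**Figure D2:**
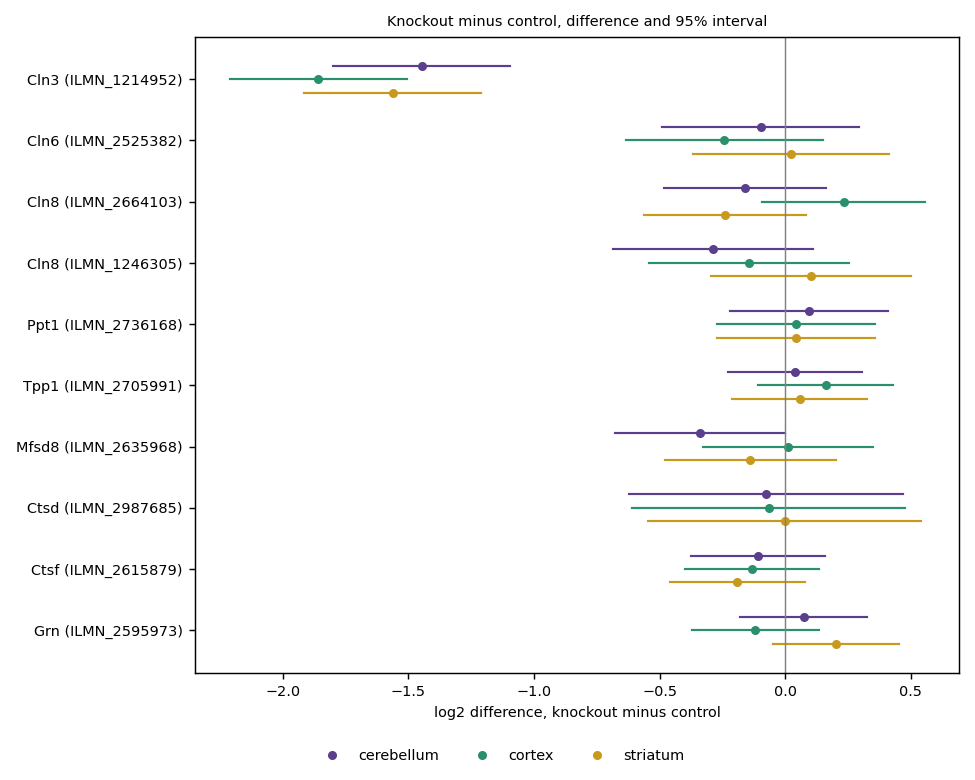
Knockout minus control difference in log2 units for each of the 10 kept probes in cerebellum, cortex and striatum, with points for the estimate and lines for the 95% interval of the limma fit. The 3 Cln3 intervals lie between -2.21 and -1.10, and those of the other probes between -0.69 and 0.56.

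Mfsd8 (ILMN_2635968, chromosome 3), the other lysosomal membrane protein, had the lowest p of the 8 genes in any region. In cerebellum its control arrays 17, 18, 19 and 20 gave 6.10, 6.38, 6.15 and 6.01 and its knockout arrays 21, 22, 23 and 24 gave 5.87, 5.93, 5.97 and 5.50, so the groups did not overlap, as for 2.61% of all probes there. None of the 9 probes had separate groups in cortex or striatum, where 7.81% and 3.61% of all probes did. The difference was -0.34 (95% interval -0.68 to -0.0014), with an unadjusted limma p of 0.0491 and an adjusted p of 0.98. Mfsd8 differed by 0.01 in cortex and -0.14 in striatum, with overlapping groups and limma adjusted p of 0.993 and 0.948.

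Among the proteins of the endoplasmic reticulum, Cln6 (ILMN_2525382, chromosome 9) was detected on all 24 arrays at 5.27 to 6.33. Its differences were -0.10, -0.24 and 0.02 in cerebellum, cortex and striatum, with limma adjusted p from 0.726 to 1. Cln8 (chromosome 8) was dimmer and its 2 kept probes differed in sign in cortex and striatum but not in cerebellum. The better detected one (ILMN_2664103, 21 of 24 arrays) differed by -0.16, 0.23 and -0.24, and the other (ILMN_1246305, 11 of 24 arrays) by -0.29, -0.15 and 0.10. No Cln8 difference was called, and the second probe was detected on 2 control and 0 knockout arrays in cerebellum, so no fold is given there.

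Of these 8 genes, Cln8 also gave the lowest p for a difference of the knockout effect between regions. For ILMN_2664103 the effect in striatum was below that in cortex by 0.47 (95% interval of the contrast -0.93 to -0.01), with an unadjusted limma p of 0.0437 and an adjusted p of 1, while the other Cln8 probe gave the opposite sign, 0.25. In the 3 contrasts between regions 0 of 9 probes were called, where 0.00667% of all probes were called for cortex against cerebellum and 0% for the other pairs. At an unadjusted p under 0.05 the counts were 0 for cortex against cerebellum, 0 for striatum against cerebellum and 1 for striatum against cortex, with backgrounds of 3.96%, 3.58% and 4.4%.

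The point estimates of the soluble enzymes lay within 0.20 of control in every region. Ppt1 (ILMN_2736168, chromosome 4), which removes palmitate from proteins, had a level between 7.28 and 8.32 on all arrays and differed by 0.09, 0.04 and 0.04 in cerebellum, cortex and striatum. Tpp1 (ILMN_2705991, chromosome 7), a peptidase that trims tripeptides, differed by 0.04, 0.16 and 0.06. Their limma adjusted p ran from 0.74 to 1.

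The cathepsins, proteases of the lysosome, had point estimates below 0 in every region, none called. Ctsd (ILMN_2987685, chromosome 7), an aspartic protease, had the widest spread of the 9 genes, with a pooled SD of 0.42, so that its 95% interval in striatum ran from -0.55 to 0.54 around -0.0021. Its cerebellum and cortex differences were -0.08 and -0.07. The Ctsd probe was dim, at 4.82 to 6.28, and was detected on 23 of 24 arrays. Leaving out 1 array changed the sign of the Ctsd difference in 2, 3 and 4 of 24 cases in cerebellum, cortex and striatum. Its direction is thus not settled. Ctsf (ILMN_2615879, chromosome 19), a cysteine protease, gave -0.11, -0.13 and -0.19. The mean Ctsf effect over regions was -0.14, with a limma adjusted p of 0.417.

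Grn (ILMN_2595973, chromosome 11) was detected on all arrays, between 9.07 and 9.73. Its differences were 0.07 in cerebellum, -0.12 in cortex and 0.20 in striatum, with limma adjusted p of 1, 0.822 and 0.812. In striatum, control arrays 1 to 4 gave 9.39, 9.39, 9.07 and 9.53 and knockout arrays 5 to 8 gave 9.67, 9.40, 9.57 and 9.54, and the groups overlapped.

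Between control regions, some of these genes did differ. From cerebellum to cortex 3 of the 10 kept probes were called, at a background of 43.2% of all probes. Tpp1 was higher in cerebellum, where control arrays 17 to 20 gave 8.25, 8.10, 7.87 and 7.92, than in cortex, where arrays 9 to 12 gave 7.47, 7.45, 7.55 and 7.39. The difference was 0.57 (SE 0.13, limma adjusted p = 0.000716) and the arrays did not overlap.

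Cln8 (ILMN_2664103) was higher in control cerebellum, at 5.50, 5.65, 5.50 and 5.63, than in control cortex, at 4.68, 5.05, 5.10 and 5.18, by 0.57 (limma adjusted p = 0.00393). Its other probe differed by 0.0024, and the call was lost when the probes of a gene were averaged (limma adjusted p = 0.0693). In cortex 2 of 4 control arrays detected ILMN_2664103, against 4 of 4 in cerebellum.

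Ctsf was higher in control cerebellum, at 8.98, 8.77, 9.51 and 9.07, than in control cortex, at 8.53, 8.49, 8.72 and 8.67, by 0.48 (limma adjusted p = 0.00347). Against striatum, at 8.88, 8.79, 8.46 and 8.80, the cerebellum was higher by 0.35 (limma adjusted p = 0.0337), although the arrays overlapped. That was the 1 probe of 10 called between cerebellum and striatum (background 38.6%), and without cerebellum control array 19, cerebellum control array 20 or striatum control array 3 it was not called (limma adjusted p of 0.197, 0.0542 and 0.137). The Ctsf call was also lost with only the groups compared (limma adjusted p = 0.109) and with array weights (limma adjusted p = 0.0731).

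Cortex and striatum differed for 1 of 10 probes (background 27.1%). This was Cln8 (ILMN_2664103), lower in cortex by 0.45 (limma adjusted p = 0.0344). The call did not hold without cortex control array 9 or 10 or striatum control array 1 or 2 (limma adjusted p of 0.138, 0.0504, 0.0831 and 0.109). It was also lost under 6 of 8 other settings, at limma adjusted p from 0.0507 without background correction to 0.102 with the authors' values. Mfsd8 was lower in control cerebellum than in control cortex by 0.40, at a limma adjusted p of 0.0506. That difference was called under some alternatives and without some single arrays, with a lowest limma adjusted p of 0.0336.

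**Figure D3:**
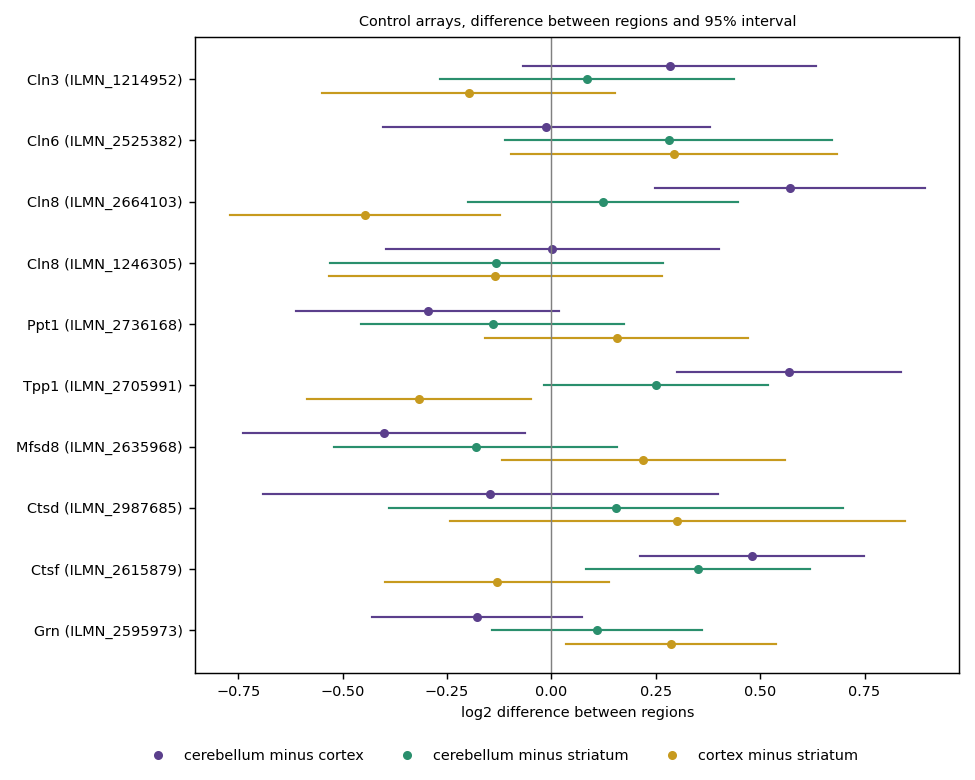
Difference between control regions in log2 units for each of the 10 kept probes, with points for the estimate and lines for the 95% interval of the limma fit. Tpp1 and Ctsf and the better detected Cln8 probe lie to the right of 0 for cerebellum minus cortex, at 0.57, 0.48 and 0.57, and the 3 Cln3 intervals include 0.

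The wider lysosomal system was read from 8 gene lists, chosen with results of these arrays known. A gene was represented by its kept probe with the highest mean level. Over all lists 102 genes were measured. In each region limma called 0 of them, where 0.225%, 0.498% and 0.547% of all genes were called. In the mean effect over regions 2 of 102 were called, Gusb and Gdpd3, a share of 1.96% that is near the 2.18% of all genes.

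Among other genes of ceroid lipofuscinosis, Atp13a2 and Dnajc5 were measured and Kctd7 was not kept. Atp13a2, a lysosomal transporter of polyamines, differed by -0.37, -0.03 and -0.41 in cerebellum, cortex and striatum, with a lowest limma adjusted p of 0.534. Dnajc5, a chaperone of synaptic vesicles, differed by -0.14 in cerebellum (limma adjusted p = 1).

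Of 39 soluble lysosomal hydrolases and activators, 31 were measured, with median differences of 0.0041, -0.07 and -0.02 in the 3 regions beside medians over all genes of 0.0082, 0.0070 and 0.02. Gusb, the beta-glucuronidase, had differences of -0.82, -0.67 and -0.73 with limma adjusted p of 0.137, 0.141 and 0.126, and its mean effect of -0.74 was called (limma adjusted p = 0.000268). It had 3 kept probes, and only the brightest is given here. Its levels ran from 6.60 to 7.65 on control and from 6.09 to 6.34 on knockout arrays in cerebellum, from 7.12 to 7.59 and from 6.46 to 7.21 in cortex, and from 6.90 to 7.51 and from 6.28 to 6.83 in striatum. The groups overlapped in cortex and were separate in the other regions, as for 2.61% of all probes in cerebellum and 3.61% in striatum. Ctsh, an aminopeptidase-type cathepsin, differed by 0.33 in cerebellum and Ctss, a cathepsin of microglia, by -0.50 in cortex (limma adjusted p of 0.811 and 0.454). Of 9 microglia markers none was called in any region, and their summed linear level in cortex was 2712 to 2861 on control and 2036 to 2645 on knockout arrays. The part of these cells in the Ctss values was not tested.

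As background, CLN3 has been linked to the clearance of glycerophosphodiesters, lipid remnants left once phospholipids lose their fatty acids. All 14 genes listed for glycerophosphodiester and lysophospholipid breakdown were measured, with medians of -0.02, -0.08 and 0.02. Gdpd3, a lysophospholipase D, stood apart at -1.45, -1.22 and -1.57, with limma adjusted p of 0.229, 0.184 and 0.0689, and its mean effect of -1.41 was called (limma adjusted p = 0.000346). Gdpd3 lies 8 measured places from Cln3 on chromosome 7, and its link to the function of CLN3 was not tested. Its spread was wide: on knockout arrays it ran from 5.39 to 7.06 in cerebellum, 4.97 to 6.88 in cortex and 4.93 to 6.72 in striatum, and on control arrays from 7.43 to 8.67, 6.91 to 7.92 and 7.22 to 8.18. The groups did not overlap in any region, with knockout lower in each, as for 0.113% of all probes. Gdpd5 differed by -0.47 in striatum and Gpcpd1 by 0.35 in cerebellum, neither called (limma adjusted p of 0.206 and 0.884).

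The remaining lists gave no call in any region or in the mean effect. Lysosomal membrane proteins, 18 measured of 23, had medians of 0.03, -0.02 and 0.05 in cerebellum, cortex and striatum, with Tmem192 at -0.38 in cortex, the cystine exporter Ctns at 0.38 in cerebellum and the chloride-proton exchanger Clcn7 at 0.42 there (limma adjusted p of 0.252, 0.884 and 0.903). Sorting and progranulin-handling genes, 14 of 15, had medians of 0.06, 0.04 and -0.01, with Vps26a of the retromer at 0.23 in cortex, Gga3 at 0.31 in striatum and Hgs at -0.26 in cortex. Genes of the transcriptional control of lysosomes, 10 of 16, had medians of -0.07, 0.08 and 0.0055, with the transcription factor Tfe3 at -0.38 in striatum, Fnip1 at 0.26 in cortex and Rragd at -0.26 in striatum.

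Genes of palmitoylation turnover, 7 of 8, had medians of -0.00023, 0.14 and -0.02. Zdhhc17, a palmitoyl transferase, differed by 0.54 in cortex (limma adjusted p = 0.0927), and the depalmitoylases Abhd17a and Abhd17b by -0.26 in cortex and -0.38 in striatum. Carriers between the endoplasmic reticulum and the Golgi, 11 of 14, had medians of 0.02, 0.07 and 0.03, with the coat protein Sec23a at 0.38 in cortex (limma adjusted p = 0.252) and Mcfd2 and Ergic1 at 0.28 each in striatum.

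Likeness to Cln3 was measured as Pearson's r over the 24 arrays after the mean of each region was subtracted, as a description. The arrays share normalization, and the knockout contrast enters this measure. The 5 named genes with the highest r were Cuedc2 (0.956), Ech1 (0.953), Dpagt1 (0.937), E430018J23Rik (0.920) and Zfp747 (0.912), beside 1 probe with no gene name (0.918). Their knockout differences in cerebellum, cortex and striatum were -2.36, -3.00 and -2.05 for Cuedc2, -2.47, -2.64 and -2.86 for Ech1, -0.88, -1.24 and -0.75 for Dpagt1, and -0.95, -1.06 and -1.01 for E430018J23Rik. Ech1 encodes an enzyme of fatty acid oxidation and Dpagt1 the enzyme that starts the lipid-linked sugar chain for protein N-glycosylation. Ceroid lipofuscinosis genes lay between -0.34 (Tpp1) and 0.36 (Ctsf) on the same measure.

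Within the 12 control arrays, where the knockout plays no part, a different set stood nearest to Cln3. The highest r belonged to Lrfn3 (0.930), Irf1 (0.927), Ethe1 (0.926), Cc2d1a (0.924) and Irf2bp1 (0.919), whose knockout differences ran from -0.14 to 0.32, both for Irf1. These are the highest r of 14994 probes on 12 arrays, and whether they exceed what chance gives was not tested. Among the ceroid lipofuscinosis genes r ran from -0.49 (Mfsd8) to 0.64 (Grn).

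Around Cln3 on chromosome 7, the 8 nearest annotated genes on each side were read in the order of assembly GRCm38.p6. Of these 16, 9 had a probe and 8 a kept one. None of the 8 was called in any region (background 0.225%, 0.498% and 0.547% of genes). Apobr, which overlaps Cln3 on the opposite strand in that annotation and encodes a lipoprotein receptor, was detected on 3, 2 and 0 control arrays in cerebellum, cortex and striatum and on 0 knockout arrays. It thus passed the filter through control arrays alone, and only bounds are given. It was at least 1.07-fold higher in control cerebellum (limma adjusted p = 0.188) and at least 1.13-fold higher in control cortex (limma adjusted p = 0.0536). The other 7 (Sh2b1, Tufm, Atxn2l, Eif3c, Nupr1, Sgf29 and Sult1a1) had mean effects from -0.17 to 0.27, none called.

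A wider window was chosen after its values were seen. Among the 50 nearest measured genes on each side of Cln3, 12 of 100 were called in the mean effect, 5 lower and 7 higher, or 12%, beside 17 of 692 (2.46%) on the rest of chromosome 7 and 223 of 10236 (2.18%) over all genes with a gene ID. Without Apobr, the single gene of the window not detected in one of the genotypes, the count was 11 of 99 (11.1%). Besides Apobr and Gdpd3, the lower ones were Mvp (-0.37), Zfp747 (-0.85) and E430018J23Rik (-1.01). The higher ones were Rps15a (1.15), Smg1 (0.33), Tmc7 (0.44), Lyrm1 (0.76), Dctn5 (0.26), Plk1 (0.43) and Bola2 (0.43). Plk1 was dim, detected on 1 control and 7 knockout arrays, while the other 10 were detected on 11 or 12 arrays of each genotype. Plk1 thus passed the filter only because of knockout arrays, where it was higher, and it remains in the 11 of 99. The directions differed by side. On one side of Cln3 all called genes were higher (Rps15a, Smg1, Tmc7, Lyrm1, Dctn5 and Plk1). On the other side Apobr, Gdpd3, Mvp, Zfp747 and E430018J23Rik were lower and Bola2 was higher. Genes that were not called lay among them, and Lyrm1 and E430018J23Rik were called in each of the 3 regions. Within this window 2, 4 and 3 genes were called in cerebellum, cortex and striatum (2%, 4% and 3%, beside 0.225%, 0.498% and 0.547% of all genes).

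**Figure D4:**
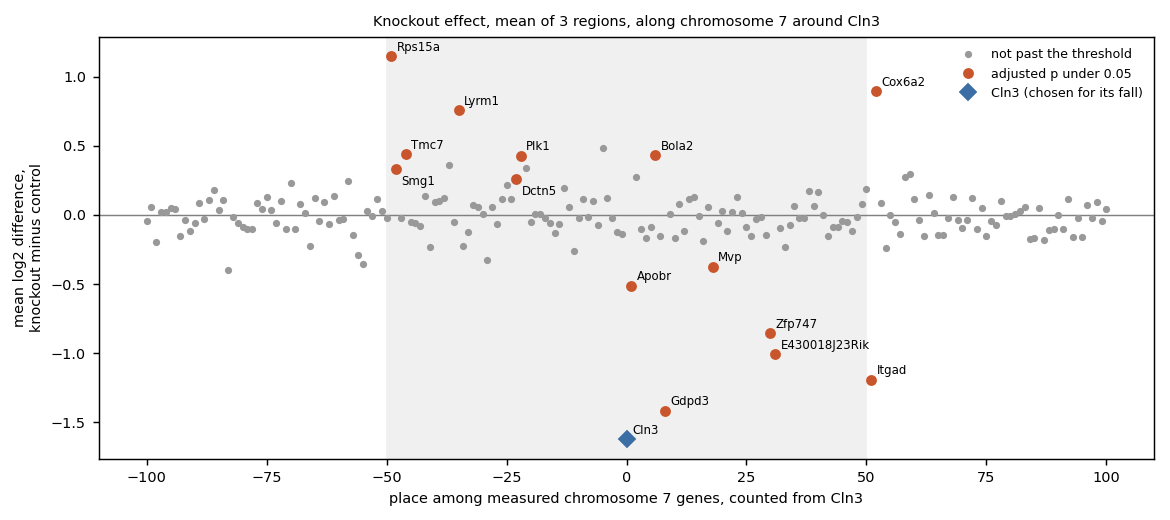
Mean knockout effect over the 3 regions, in log2 units, for Cln3 and the 100 nearest measured genes on each side, placed by their order along chromosome 7, with genes called in the mean effect in red and named, Cln3 as a diamond and the 50 places on each side shaded. Cln3 stands at -1.62, Gdpd3 at -1.41 is 8 places away, and the other called genes within the shading lie between -1.01 and 1.15.

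Markers of oligodendrocytes were lower in the knockout cortex and striatum by the limma calls given above. The 9 measured genes had a median difference of -0.22 in cerebellum, -0.74 in cortex and -1.02 in striatum, and their summed linear level was 53310 to 63350 on control and 50680 to 55240 on knockout cerebellum arrays, 47830 to 57250 and 32740 to 42410 in cortex, and 59150 to 68310 and 36840 to 56640 in striatum. All 9 markers were detected in every group, and all 9 differences were below 0 in each region, including cerebellum, where 0 were called. The part of these cells in the Cln3 values was not tested. As for differences of the knockout effect between regions, limma called 0 of all probes for striatum against cerebellum and 1 for cortex against cerebellum. In bulk tissue, fewer cells of a type and less RNA per cell cannot be told apart.

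Choroid plexus markers are given for cortex, and Ttr also for striatum. All 5 measured markers had differences below 0 there, with a median of -0.44 and Ttr at -1.45, and none was called. Ttr, a transport protein made by the choroid plexus, stood at 12.61, 13.46, 13.21 and 8.75 on cortex knockout arrays 13, 14, 15 and 16, and at 13.15 to 13.89 on cortex control arrays. Array 16 stood apart in Ttr. Its Cln3 level was 5.35, the highest of the 4 knockout arrays, which began at 4.76. Without array 16, limma called 17 of all probes in cortex in place of 64. The count also fell without other cortex arrays. It was 34, 29 and 30 without knockout array 13, 14 or 15, and 32, 40 and 39 without control array 9, 10 or 12. In striatum Ttr varied widely in both genotypes, from 6.58 to 10.11 on control and from 5.24 to 9.39 on knockout arrays. Its difference there was -0.80, while the median of the 5 markers was 0.08. The part of choroid plexus tissue in the Cln3 values was not tested.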

How the data were processed

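RNA from frozen mouse brain was amplified to biotin-labelled cRNA and read on Illumina bead arrays, 24 in 6 groups of 4. The raw table that was deposited gives linear bead intensities and detection p-values, per the file headers. Its maker was BeadStudio according to the submitters' processing notes, which name no version. A 2nd deposited table holds the authors' processed intensity values, whose medians were 11.6 on every array. The sources used here do not give their background subtraction or normalization. Before log2 these deposited values were raised to a floor of 16 where lower. Every sample column had a label.

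Raw intensities were background-corrected with limma 3.58.1 (R 4.3.3), using noise estimated from the detection p-values, of which 49.2% were exactly 0. An offset of 16, quantile normalization and log2 followed. Kept were 14994 probes whose detection p was under 0.01 on 4 or more arrays, and 10703 were removed. Means of the 6 groups were fitted with lmFit and eBayes under an intensity trend, with 18 residual and 10.1 prior degrees of freedom. Tests were two-sided, and intervals are 95% intervals of that fit. The number of arrays limits the precision.

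Probe genes came from the platform annotation: 23978 probes had 1 gene, 0 several and 1719 none, 23971 matched the GRCm38.p6 gene table and 8 symbols were updated. Where a bound is given, it is the brighter group's mean against, per dim array, the lowest signal of any detected probe or the probe's own if higher. The members and lists were chosen with earlier results of these data known. Named genes were all 9 members, the 8 nearest annotated genes on each side of Cln3, the 5 genes most like Cln3 on all and on control arrays, and per list the called genes and up to 3 others of smallest p in a region. The scripts were tested on simulated data. Alternatives were no background correction, an offset of 50, median scaling, the authors' values, no filter, the mean of a gene's probes, only the groups compared, array weights, and leaving out each array.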

Additional observations from a re-analysis of the deposited data

Results flagged for a closer look

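In 60 groups of 4 arrays of the 10 kept probes, the gap between the highest or the lowest array and its nearest neighbour, divided by the range of the group, was set against Dixon's 95% critical value for 4 samples. It was exceeded in 2 groups, and chance gives about 1 in 20 groups. Cln3 on cortex knockout array 15 was 4.76, below the other 3 arrays at 5.25 to 5.35 (ratio 0.833), and the probe was not detected on that array. Cln8 (ILMN_1246305) on cortex control array 10 was 4.37, below the others at 5.02 to 5.12 (ratio 0.856), and was likewise not detected there.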

How the results depend on the processing

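Across 32 alternatives, 0 probes of the other 8 genes were called in any region, with a lowest limma adjusted p of 0.664, 0.45 and 0.382 in cerebellum, cortex and striatum. The count was also 0 in the mean effect and the regional differences under all of these that give one, which leaves out the fits of only the groups compared. A probe dropped by a setting was not counted there. Cln3 stayed lower in every region under each of them. Its difference was -0.82, -0.89 and -0.85 in cerebellum, cortex and striatum without background correction, -1.06, -1.22 and -1.12 with an offset of 50 and -1.80, -2.26 and -1.97 with the authors' values. Without 1 array it ran from -1.60 to -1.31, from -1.91 to -1.72 and from -1.68 to -1.50. The count of all probes called was 30, 64 and 74 in the 3 regions. It became 33 in cortex and 37 in striatum with median scaling, 58 in cerebellum with the authors' values, 42 in cortex without the filter, 9 in cerebellum and 19 in striatum with only the groups compared, and 257 in cortex with array weights. Without 1 array it ran from 21 to 29, from 17 to 98 and from 38 to 122. The lowest cortex count was without knockout array 16, and both highest counts were without striatum knockout array 5. Between control regions, the single call from cortex to striatum became 0 without background correction, with median scaling, without the filter, with averaged probes and with only the groups compared, and from 0 to 1 without 1 array. The single call from cerebellum to striatum became 0 with only the groups compared and with array weights, and from 0 to 1 without 1 array. From cerebellum to cortex 3 to 5 were called without 1 array, 5 of them without cerebellum control array 19. The causes were not tested. No paired analysis was possible because replicate numbers are not shared between groups and no label ties arrays to mice. Dim probes limit the rest: the Cln6 probe detected on 0 arrays and the second Cln8 probe give little information, and the offset shrinks their differences.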

Other observations

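The share of called genes around Cln3 on chromosome 7 depended on the width of the window, which was chosen after the values were seen. In the mean knockout effect over regions it was 3 of 20 (15%) for the 10 nearest measured genes on each side, 6 of 50 (12%) for 25, and 14 of 200 (7%) for 100, beside 2.18% of all genes. All of these window counts include Apobr, detected on 5 control and 0 knockout arrays. Those for 25 and 100 also include Plk1, detected on 1 and 7. Each of these genes passed the filter only because of arrays of the genotype where it was higher. The genes that the widest window added were Itgad, at a mean effect of -1.19 and 51 places from Cln3, and Cox6a2, at 0.89 and 52 places. Itgad, an integrin subunit, had control levels from 6.21 to 7.43 and knockout levels from 4.47 to 5.85 in striatum (difference -1.70, limma adjusted p = 0.00215). It had 2 kept probes, and only the brighter is given here. Tpp1 and Ctsd lie on the same chromosome as Cln3, 89 measured genes away on one side and 137 on the other, and neither was called.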
